A study of Mus musculus with 12 samples.

Results

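The muscle acetylcholine receptor genes *Chrna1*, *Chrnb1*, *Chrnd*, *Chrng* and *Chrne* were followed through the development of mouse tibialis anterior (TA) muscle. They were chosen by name, as the 5 genes that encode the subunits of the muscle receptor, and make up 5 of the 55450 genes in the count table. RNA-seq was done on TA muscle from WT mice on the 129Pas background (129SvPas in the study's methods) at 3 ages, late gestation (E18.5), 2 weeks (wks) and 7 wks, with 4 libraries at each age. The labels name no treatment or transgene, and the groups differed in age. Per the study, each age was represented by 4 mice.

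The muscle nicotinic receptor is a ligand-gated cation channel that opens when motor nerve acetylcholine binds, and the current it carries triggers the muscle action potential. It is a pentamer of paired α1 subunits with one β1, one δ and either a γ or an ε subunit. Receptors that contain γ are the fetal form and are spread along the young fibre, whereas receptors that contain ε are the adult form and are concentrated at the endplate, and they differ in conductance and open time. The exchange of γ for ε after birth, and its partial return after denervation, is a textbook property of the neuromuscular junction. Motor nerve activity lowers transcription of the subunit genes outside the synapse, while nuclei under the synapse keep them active. Myogenic bHLH factors act through E-box sequences, and Ets factors such as GABP act through a sequence called the N-box.

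The subunit genes lie on 3 chromosomes (RefSeq, GRCm38.p6). *Chrnd* (ENSMUSG00000026251) spans chr1:87190597-87200070 and *Chrng* (ENSMUSG00000026253) spans chr1:87205811-87211835, both on the plus strand and 5740 bp apart. *Chrna1* (ENSMUSG00000027107) is at chr2:73563281-73580338 on the minus strand. *Chrnb1* (ENSMUSG00000041189, chr11:69784036-69795966) and *Chrne* (ENSMUSG00000014609, chr11:70614883-70619213) are on the minus strand of chromosome 11. *Chrne* overlaps 4930544D05Rik on the opposite strand, which had 0 to 3 counts in each library, and the antisense neighbour *Chrna1os* had 8 to 143 counts. *Gm30940* overlaps *Chrna1* on the opposite strand and is not in the count table. Other neighbours were expressed. *Mink1*, 386 bp from *Chrne*, had 2703 to 7157 counts, and *Zbtb4*, 10 bp from *Chrnb1*, had 2555 to 5168 counts. The part of neighbouring genes in the subunit counts was not tested.

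The promoters of 4 of the 5 genes are shown because the motif for each class of factor can be read in them. They are the 250 bases before the RefSeq start site (GRCm38.p6), on the sense strand, 5′ to 3′, with E-box (CANNTG) and N-box (CCGGAA) matches in capitals; both motifs were searched on both strands and no matches overlapped. For *Chrnb1* and *Chrne* the annotated gene span begins a short way inside the window, upstream of the start site used.
*Chrna1*, chr2:73580339-73580588, minus strand: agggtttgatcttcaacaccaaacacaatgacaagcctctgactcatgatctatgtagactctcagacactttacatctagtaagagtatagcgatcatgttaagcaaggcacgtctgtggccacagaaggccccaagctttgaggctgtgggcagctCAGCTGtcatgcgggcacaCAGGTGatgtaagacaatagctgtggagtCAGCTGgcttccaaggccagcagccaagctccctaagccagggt
*Chrnb1*, chr11:69795938-69796187, minus strand: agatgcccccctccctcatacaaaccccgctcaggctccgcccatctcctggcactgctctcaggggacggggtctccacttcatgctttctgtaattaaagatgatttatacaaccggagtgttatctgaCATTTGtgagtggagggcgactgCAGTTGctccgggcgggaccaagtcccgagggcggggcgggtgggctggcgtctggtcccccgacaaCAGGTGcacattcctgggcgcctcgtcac
*Chrng*, chr1:87205561-87205810, plus strand: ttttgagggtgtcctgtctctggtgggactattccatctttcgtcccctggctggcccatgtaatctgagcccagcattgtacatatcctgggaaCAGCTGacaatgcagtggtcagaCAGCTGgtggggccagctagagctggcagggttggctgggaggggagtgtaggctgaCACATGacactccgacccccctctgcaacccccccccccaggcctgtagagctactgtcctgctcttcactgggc
*Chrne*, chr11:70619195-70619444, minus strand: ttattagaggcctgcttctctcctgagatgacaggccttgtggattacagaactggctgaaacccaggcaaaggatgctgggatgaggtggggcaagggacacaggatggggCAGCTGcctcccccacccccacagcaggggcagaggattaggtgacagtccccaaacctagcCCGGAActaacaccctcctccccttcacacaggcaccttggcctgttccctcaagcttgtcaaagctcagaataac
The *Chrna1*, *Chrnb1* and *Chrng* windows each held 3 E-boxes, and the *Chrne* window held 1. The N-box was found in the *Chrne* window, 76 bases before the start, and in none of the other 3. Among 32851 mouse promoter windows of the same length, 66.2% held at least 1 E-box, 31.8% held 2 or more, and 12% held an N-box. Within the E-boxes, 2 forms were counted. CAGCTG occurred 2 times in *Chrna1*, 2 times in *Chrng* and 1 time in *Chrne*. Of all windows, 13% held CAGCTG and 1.26% held it 2 or more times. CAGGTG occurred 1 time in *Chrna1* and 1 time in *Chrnb1*, and 17.2% of all windows held it. A match describes the letters only.

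The libraries held 63018968 to 123449246 counts, and 19276 genes passed the filter on low counts. All 7 muscle fibre markers were detected at every age, with a summed level of 12620 to 22540 CPM (counts scaled to library size by TMM) at E18.5, 115700 to 140200 at 2 wks, then 119500 to 159200 at 7 wks. Fibroblast markers (6 of 6 detected) ran from 4629 to 8848 CPM at E18.5, 3247 to 4841 at 2 wks, then 818.5 to 2867 at 7 wks. Satellite cell and myoblast markers (5 of 5) ran from 64.7 to 106.6, 48.4 to 57.7 and 41.9 to 45.5 CPM. Red blood cell markers (6 of 6) ran from 241.3 to 1025, 145.5 to 755.1 and 91.9 to 129.6 CPM. Schwann cell markers (7 of 7) ran from 168.5 to 268.5, 148.5 to 684.6 and 111.6 to 167 CPM. Motor axon markers reached 2.15 CPM at E18.5 and at most 0.0137 CPM later, with *Chat* at 0 in all 12 libraries. E18.5 library 2 had the highest epidermis sum (52.1 CPM, against 2.22 to 8.33 in the others of that age) and the highest cartilage and bone sum (146.2 CPM, against 23.0 to 59.0). In whole muscle, fewer cells of a type and less RNA per cell cannot be told apart, and the part of these tissue markers in the results was not tested. The scaling also mattered. The median log2 change of all genes was -0.09, -0.03 and -0.09 for 2 wks against E18.5, 7 wks against 2 wks and 7 wks against E18.5 by TMM, but -1.02, -0.38 and -1.37 by total counts. The calls split accordingly into 6074 higher and 6594 lower by TMM and 2552 and 11917 by total counts for 2 wks against E18.5. For 7 wks against 2 wks the split was 2608 and 2687 by TMM, 948 and 5391 by total counts and 1902 and 3286 by upper-quartile scaling.

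The receptor genes did not move together between E18.5 and 2 wks. *Chrng* and *Chrnd* fell, *Chrne* and *Chrnb1* rose, and *Chrna1* did not pass the test. Of the 5 genes, 4 were called at an adjusted p under 0.05 (edgeR quasi-likelihood test, Benjamini-Hochberg), where 65.7% of all genes tested were called. The 2 genes called higher stood against 31.5% of all genes and the 2 called lower against 34.2%. From 2 wks to 7 wks all 5 genes fell, where 13.9% of all genes tested were called lower and 27.5% were called in either direction. The 7 wks against 2 wks comparison was the less stable, with 5295 genes called from all libraries and 3472 without 2 wks library 1.

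**Figure D1:**
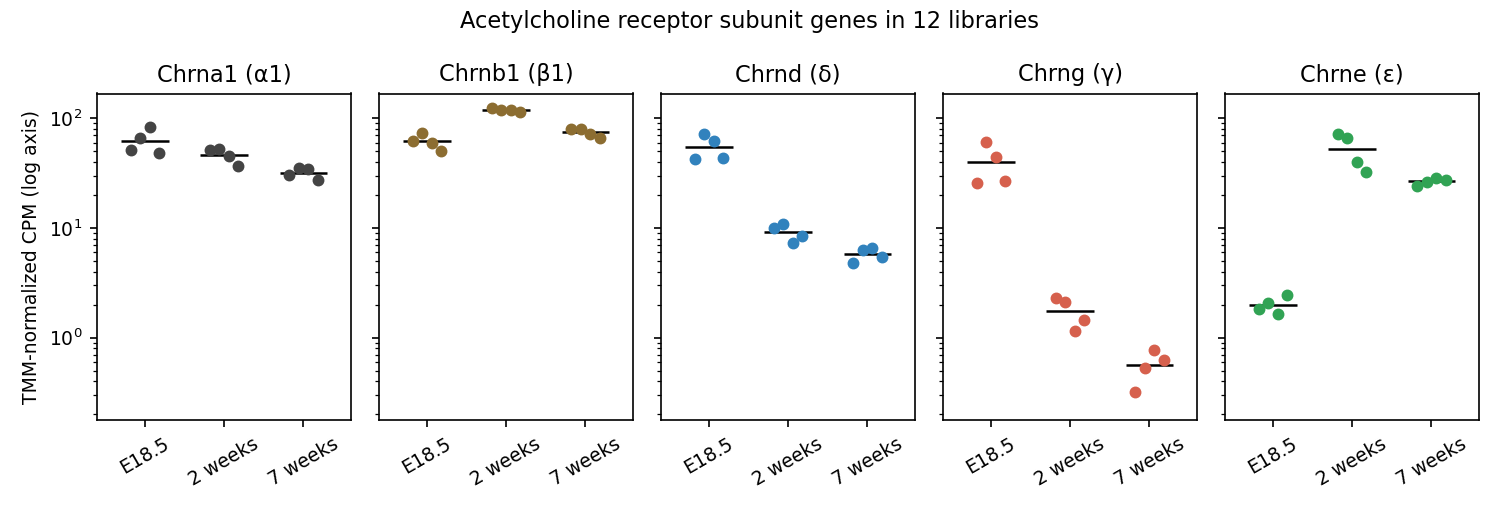
TMM-normalized CPM (log axis) of each receptor subunit gene in the 12 libraries, by age. Points are libraries and bars are means of 4. *Chrng* went from 25.9 to 61.3 CPM at E18.5 to 0.321 to 0.766 at 7 wks, while *Chrne* went from 1.63 to 2.47 CPM at E18.5 to 32.2 to 71.5 at 2 wks.

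*Chrng*, which encodes the fetal γ subunit, had 25.9, 61.3, 44.6 and 27.1 CPM in E18.5 libraries 1 to 4. At 2 wks it had 2.28, 2.13, 1.16 and 1.45 CPM, and at 7 wks 0.321, 0.528, 0.766 and 0.627 CPM. The lowest library of each age lay above the highest of the next, so no ages overlapped, although the 7 wks libraries still held 16 to 50 counts. The mean level was 39.7 ± 16.8 CPM (SD, n = 4) at E18.5, 1.76 ± 0.536 at 2 wks, then 0.560 ± 0.187 at 7 wks. The level at 2 wks was 22.6-fold lower than at E18.5 (log2 fold change -4.50, SE 0.35, edgeR adjusted p = 2.65e-07). Only 2.02% of the genes tested had a lower log2 change in that comparison. It was a further 3.11-fold lower at 7 wks than at 2 wks (log2 fold change -1.63, SE 0.34, edgeR adjusted p = 0.00371). Over the whole period the fall was 70.3-fold (log2 95% interval -6.96 to -5.31). Without E18.5 library 2, which had the highest *Chrng* level of its age, the log2 change from E18.5 to 2 wks was -4.21.

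*Chrne*, which encodes the adult ε subunit, was already detected at E18.5, with 1.84, 2.06, 1.63 and 2.47 CPM in the 4 libraries (265 to 495 counts). At 2 wks the libraries held 71.5, 65.5, 39.9 and 32.2 CPM. At 7 wks they held 24.3, 26.4, 28.3 and 27.6 CPM. The 2 wks libraries were the highest and the most spread, and their lowest value remained above the highest at 7 wks, so that no ages overlapped. The mean went from 2.00 ± 0.358 CPM (SD, n = 4) to 52.3 ± 19.1 and then to 26.6 ± 1.76. The rise to 2 wks was 26.2-fold (log2 fold change 4.71, SE 0.26, edgeR adjusted p = 1.53e-08), and 99.1% of the genes tested had a lower log2 change. Between 2 wks and 7 wks the level fell by 0.97 on the log2 scale, or 1.96-fold (SE 0.23, edgeR adjusted p = 0.00678), and it stayed 13.3-fold above E18.5 (edgeR adjusted p = 3.2e-08). The log2 changes of the 2 intervals differed by -5.68 (edgeR adjusted p = 4.76e-07), where 38.4% of all genes tested had a difference that was called. The summed Schwann cell markers in the same 2 wks libraries were 684.6, 261.5, 236.1 and 148.5 CPM, in the order of the *Chrne* values above, and their part in the spread was not tested. Without 2 wks library 1, *Chrne* fell by 0.80 on the log2 scale from 2 wks to 7 wks. The size of the rise depended on the scaling. By total counts the log2 change of *Chrne* from E18.5 was 3.82 at 2 wks and 2.46 at 7 wks, against 4.71 and 3.74 by TMM. These total-count values were 4.84 and 3.83 above the median of all genes under that scaling, a distance that a change of scaling hardly alters.

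*Chrnd*, which encodes the δ subunit found in both receptor forms, had 42.5, 72.3, 61.6 and 43.0 CPM at E18.5. It had 9.91, 10.9, 7.32 and 8.41 CPM at 2 wks, then 4.77, 6.37, 6.55 and 5.46 CPM at 7 wks. The ages did not overlap, and *Chrnd* fell over the same intervals as *Chrng*, its neighbour on chromosome 1, but less steeply. Mean levels were 54.8 ± 14.6, 9.14 ± 1.58 and 5.79 ± 0.829 CPM (SD, n = 4). The level was 6.001-fold lower at 2 wks than at E18.5 (log2 fold change -2.59, SE 0.21, edgeR adjusted p = 3.43e-07). It was 1.58-fold lower at 7 wks than at 2 wks (log2 fold change -0.66, SE 0.20, edgeR adjusted p = 0.0251), and this call was lost without 2 wks library 1 (-0.63), 2 wks library 2 (-0.56), 7 wks library 1 (-0.58) or 7 wks library 4 (-0.63). Across the 12 libraries the log2 levels of *Chrnd* and *Chrng* had Pearson r = 0.995, a description of libraries that fall into 3 ages.

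*Chrnb1*, which encodes the β1 subunit, followed an arch. It had 62.4, 73.0, 59.5 and 50.7 CPM at E18.5, 123.1, 120.1, 118.5 and 114.8 CPM at 2 wks, and 80.5, 79.4, 71.3 and 66.5 CPM at 7 wks. Every 2 wks library was above every other library, while the E18.5 and 7 wks libraries overlapped. The rise to 2 wks was 1.94-fold (log2 fold change 0.96, SE 0.13, edgeR adjusted p = 3.5e-05) and the fall to 7 wks was 1.60-fold (log2 fold change -0.68, SE 0.13, edgeR adjusted p = 0.00254). The difference between 7 wks and E18.5 did not pass the test (log2 fold change 0.28, 95% interval -0.01 to 0.56, edgeR adjusted p = 0.0756), but was called without E18.5 library 2 (0.37). By total counts the log2 change to 2 wks was 0.030 and was not called (edgeR adjusted p = 0.86). It was 1.05 above the median of all genes under that scaling. The 7 wks against E18.5 difference became -0.9998 by total counts (edgeR adjusted p = 2.2e-05), or 0.37 above the median of all genes in that comparison. A change of scaling moves all genes by about the same amount. These distances were therefore nearly fixed in advance and do not show that the rise holds by total counts.

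*Chrna1*, which encodes the α1 subunit that carries most of the acetylcholine binding site, had a lower mean level at each later age. It had 51.3, 65.7, 83.3 and 47.8 CPM at E18.5, 50.8, 51.9, 45.3 and 36.7 CPM at 2 wks, and 30.3, 35.2, 34.3 and 27.1 CPM at 7 wks. The E18.5 and 2 wks libraries overlapped, and every 7 wks library was below both. The difference of 2 wks from E18.5 did not pass the test (log2 fold change -0.43, 95% interval -0.82 to -0.03, edgeR adjusted p = 0.0536). It was called under 7 of the 11 other settings, it was -0.13 with the GC trend removed, and it was called without E18.5 library 1 (-0.51) or 4 (-0.53). *Chrna1* fell by 0.54 on the log2 scale from 2 wks to 7 wks (SE 0.18, edgeR adjusted p = 0.0421), but this call was lost without any one of 2 wks libraries 1 to 3 or 7 wks libraries 1 to 4 (adjusted p = 0.0525 to 0.118). Over the whole period it was 1.95-fold lower (edgeR adjusted p = 0.000328).

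**Figure D2:**
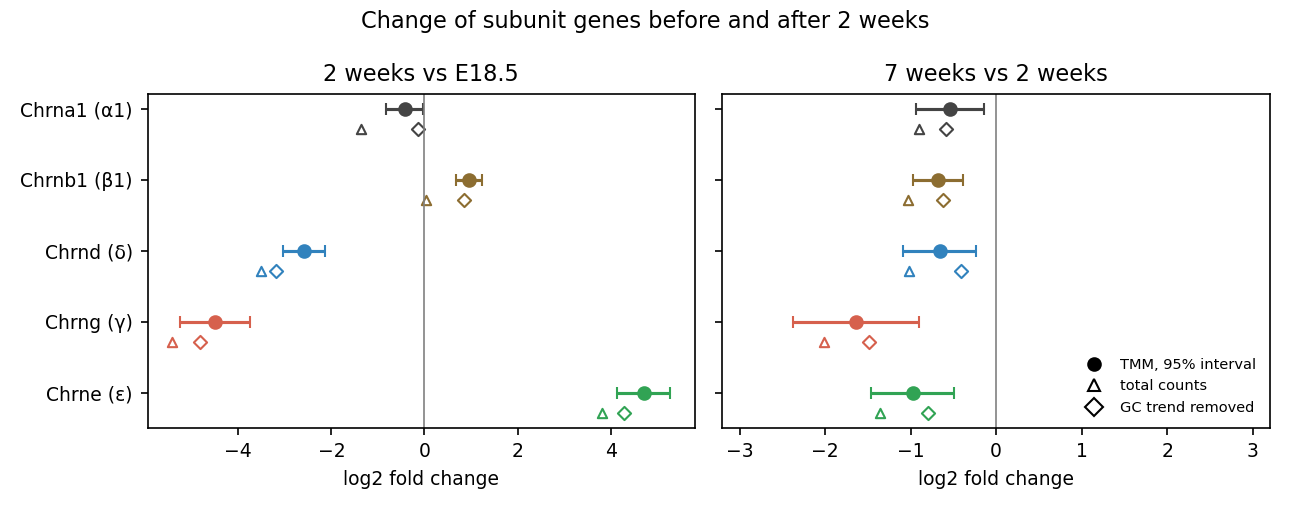
Log2 fold changes of the receptor subunit genes between 2 wks and E18.5 (left) and between 7 wks and 2 wks (right). Filled points are TMM-normalized edgeR estimates with 95% intervals, triangles use total counts and diamonds have the GC trend removed. *Chrng* (-4.50) and *Chrne* (4.71) lay at opposite ends on the left, while all 5 genes lay below 0 on the right.

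Non-overlap between libraries gave the same reading as the test for each of the 5 genes in every comparison of ages. The E18.5 and 2 wks libraries did not overlap for 4 of the 5 genes, where 61.3% of all genes tested did not overlap. All 5 genes had every 7 wks library below every 2 wks library, where 16.4% of all genes tested did so. Between 7 wks and E18.5 the libraries did not overlap for 4 of the 5 genes (63.4% of all genes tested), and 1 gene was called higher and 3 lower (71.4% of all genes tested were called, 34.3% higher and 37.1% lower).

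The exchange of γ for ε was read most directly from the ratio of the 2 genes within a library, which no scaling between libraries can alter. Per kb of exon, the ratio of *Chrne* to *Chrng* was 0.168, 0.0794, 0.0868 and 0.216 in the E18.5 libraries. It was 74.2, 72.7, 81.3 and 52.7 at 2 wks, then 179, 118, 87.5 and 104 at 7 wks. The *Chrng* signal exceeded the *Chrne* signal in every E18.5 library, the reverse held in every later library, and the 3 ages did not overlap. The mean log2 ratio rose by 9.11 (551-fold) from E18.5 to 2 wks and by 0.77 (1.70-fold) from 2 wks to 7 wks. Of the summed *Chrng* and *Chrne* signal per kb of exon, *Chrne* made up 11.9 ± 5.05% (SD, n = 4) at E18.5, 98.6 ± 0.285% at 2 wks, then 99.1 ± 0.239% at 7 wks. The union of exons is 4203 bases for *Chrng* and 1775 for *Chrne*, while the coding lengths are 1557 and 1482. With coding length the shares were 5.70%, 96.8% and 98.1%. The change of the log2 ratio between ages does not depend on the length used, because a fixed length cancels.

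**Figure D3:**
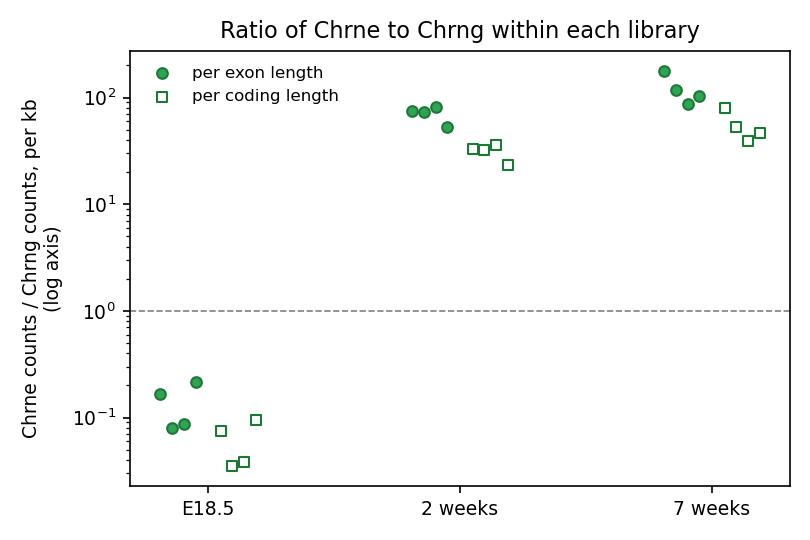
Ratio of *Chrne* to *Chrng* counts per kb in each library (log axis), by age, with exon length (filled circles) and coding length (open squares). The dashed line marks equal signal. All 4 E18.5 libraries lay below it and all later libraries lay above it, from 0.0794 at the lowest to 179 at the highest by exon length.

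The make-up of the receptor RNA changed at the same time. Of the summed signal of the 5 genes per kb of exon, *Chrnb1* made up 37.9 ± 4.91% (SD, n = 4) at E18.5, 52.6 ± 7.00% at 2 wks, then 54.5 ± 3.18% at 7 wks. *Chrnd* went from 23.95 ± 1.63% to 2.88 ± 0.316% and 3.07 ± 0.394%, and *Chrna1* from 21.7 ± 3.30% to 11.5 ± 0.665% and 13.4 ± 1.011%. The *Chrnd* share was lower in every later library than in any E18.5 library, and the later ages overlapped. *Chrne* went from 1.88 ± 0.662% to 32.5 ± 7.15% and 28.8 ± 2.75%, and *Chrng* from 14.6 ± 3.16% to 0.467 ± 0.0852% and 0.256 ± 0.0885%. The ratio of *Chrnd* to *Chrnb1* per kb of exon, subunits that each occur once in a receptor, was 0.643 ± 0.116 at E18.5, 0.0554 ± 0.00883 at 2 wks, then 0.0567 ± 0.00994 at 7 wks. The ratio of *Chrna1* to *Chrnb1* was 0.584 ± 0.150, 0.222 ± 0.0283 and 0.246 ± 0.026. Per kb of coding sequence the *Chrna1* ratio was 1.115, 0.424 and 0.469, and the *Chrnd* ratio was 0.794, 0.0684 and 0.0700. The summed *Chrng* and *Chrne* signal relative to *Chrnb1* was 0.443, 0.650 and 0.536 per kb of exon but 0.647, 0.456 and 0.374 per kb of coding sequence, so its direction depended on the length used.

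**Figure D4:**
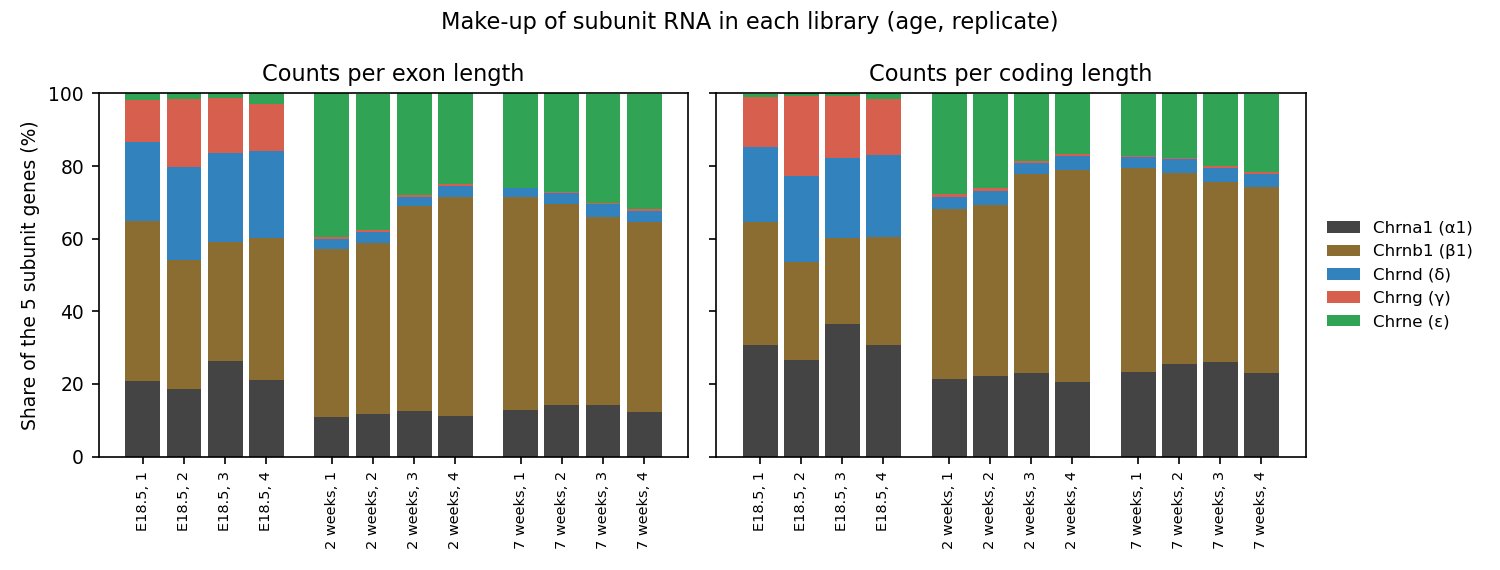
Share of each subunit gene in the summed signal of the 5 genes (%) in each library, from counts per exon length (left) and per coding length (right). Bars are single libraries. *Chrng* and *Chrnd* together filled a large part of the E18.5 bars and little of the later bars, where *Chrne* took 24.9% to 39.5% at 2 wks by exon length.

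The order of the RNA levels also changed. On the scale of CPM per kb of exon, mean levels at E18.5 were 23.5 for *Chrnb1*, 15.2 for *Chrnd*, 13.7 for *Chrna1*, 9.45 for *Chrng* and 1.13 for *Chrne*. The ranges of neighbours in this order overlapped except for *Chrng* and *Chrne*. At 2 wks the order on this scale was *Chrnb1* (45.7), *Chrne* (29.5), *Chrna1* (10.2), *Chrnd* (2.53) and *Chrng* (0.418), and it was the same at 7 wks (28.5, 15.004, 6.99, 1.60 and 0.133), with no overlap of neighbours. With coding length in place of exon length, *Chrna1* was first at E18.5 (45.3, range overlapping that of *Chrnb1*), *Chrne* and *Chrna1* overlapped at 2 wks, and *Chrna1* (23.2) was above *Chrne* (17.97) at 7 wks.

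Likeness to each receptor gene was measured as the root mean square (RMS) difference of centred log2 CPM over the 12 libraries, a description of libraries that share age and depth. *Chrnd* was most like *Baiap2l1* (RMS 0.235), *Ncam1* (0.243) and *Nt5dc2* (0.249). *Ncam1*, which encodes a cell adhesion molecule that is spread over fetal and denervated fibres, averaged 94.7, 17.8 and 10.3 CPM at the 3 ages. *Chrng* was most like *Dnah14* (0.435), *Gm11243* (0.455) and *Tceal3* (0.478), and *Chrne* was most like *Ifitm10* (0.310), *Tmem255b* (0.323) and *Ncmap* (0.328). *Ncmap*, a myelin-associated gene of Schwann cells, averaged 0.197, 5.78 and 3.72 CPM. *Chrnb1* was most like *Elk3* (0.120), *Bace2* (0.177) and *Tspan15* (0.180), and *Chrna1* was most like *Gm37584* (0.145), *P2rx4* (0.162) and *Pop1* (0.174).

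Genes that cluster the receptor at the synapse moved in both directions between E18.5 and 2 wks. Of 16 genes, 4 rose and 9 fell, where 31.5% and 34.2% of all genes tested did, and the median log2 change was -0.51 against -0.09 for all genes. *Rapsn*, which encodes the scaffold that binds the receptor, had 3.91, 11.99, 7.05 and 4.77 CPM at E18.5 and 21.0, 18.2, 25.0 and 29.4 CPM at 2 wks, with no overlap (log2 fold change 1.76, SE 0.33, edgeR adjusted p = 0.000377). *Dok7*, the adaptor that activates MuSK, rose by 2.29 on the log2 scale and *Ache*, the esterase that ends transmission, by 2.06. *Musk*, the receptor tyrosine kinase that starts clustering, fell by 1.08 (SE 0.30, edgeR adjusted p = 0.00574), or by 0.54 with the GC trend removed (edgeR adjusted p = 0.0977). *Erbb3*, a neuregulin receptor, fell by 1.97 and *Nrg1* fell by 4.89, from 122 to 285 counts at E18.5 to 0 to 10 at 2 wks. *Nrg1* passed the filter through its E18.5 counts, so its test could give only a fall. With at least 10 counts required in every library, 15 of the clustering genes were tested, and 4 rose and 8 fell. From 2 wks to 7 wks, where 27.5% of all genes tested were called, 1 of the 16 genes rose (*Crkl*, 0.42, edgeR adjusted p = 0.0403) and 1 fell (*Agrn*, which encodes the nerve and muscle signal for clustering, -0.91, edgeR adjusted p = 0.0138). The *Crkl* call was lost under 5 of 11 other settings and without any one of E18.5 libraries 3 and 4, the 2 wks libraries, or 7 wks libraries 1, 2 and 4 (0.33 to 0.46). *Rapsn* (0.34, SE 0.32) and *Dok7* (-0.46, SE 0.26) did not pass the test. *Rapsn* was called at 0.75 with the GC trend removed, where *Dok7* was 0.039. *Dok7* was called at -0.82 by total counts, where *Rapsn* was -0.0049, and at -0.50 in the 8 libraries compared. *Ache* had 60.1 to 70.6 CPM at 2 wks and 40.4 to 44.0 at 7 wks, with no overlap. Its log2 change of -0.62 was not called (edgeR adjusted p = 0.0991), but it was called at -0.66 in the 8 libraries compared. In those 8 libraries 15 clustering genes were tested, and 1 was called higher and 4 lower.

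**Figure D5:**
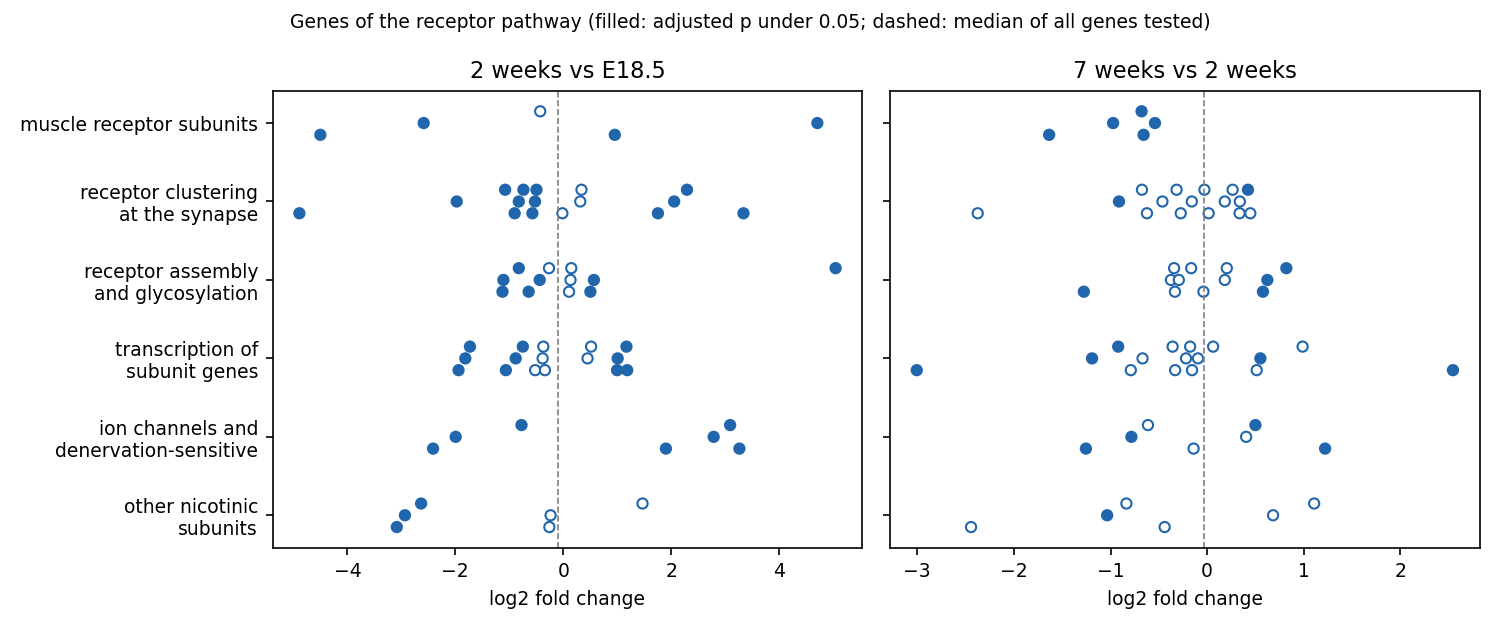
Log2 fold changes of the receptor subunit genes and of 5 lists of related genes, for 2 wks against E18.5 (left) and 7 wks against 2 wks (right). Each point is a gene, filled where the edgeR adjusted p was under 0.05, and the dashed line is the median of all genes tested. All 5 subunit genes were filled and below 0 on the right, where 1 of 16 clustering genes was. When only the 8 libraries compared were fitted, 4 of 15 clustering genes were called lower.

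Genes for assembly and glycosylation of the receptor also split. Of 12 genes, 3 rose and 5 fell at 2 wks, near the 31.5% and 34.2% of all genes tested, and 3 rose and 1 fell at 7 wks, where 27.5% of all genes were called. *Lynx1*, which encodes a GPI-anchored toxin-like protein that binds nicotinic receptors, had 3.00 to 4.45 CPM at E18.5, 90.3 to 168.2 at 2 wks, then 208.5 to 246.9 at 7 wks, with no overlap of ages. It rose by 5.05 (SE 0.22, edgeR adjusted p = 2.38e-09) and then by 0.82 (SE 0.19, edgeR adjusted p = 0.00625) on the log2 scale. The chaperone gene *Ric3* rose by 0.57 and 0.62, and by total counts its first change was -0.37. Each of these calls was lost under 3 of 11 other settings, by total counts, by upper-quartile scaling and with no filter. The second call was also lost without 2 wks library 1 or 2 or 7 wks library 1 or 2 (0.56 to 0.59). *Gfpt1*, the first enzyme of the hexosamine pathway, fell by 1.13 and the chaperone *Canx* fell by 1.11 at 2 wks. *Tmem35a*, which encodes a nicotinic receptor chaperone, fell by 1.28 from 2 wks to 7 wks (edgeR adjusted p = 0.00207).

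Of 16 genes for factors that act on the subunit genes, 4 rose and 6 fell at 2 wks, and 2 rose and 3 fell at 7 wks, near the shares of all genes tested that were called (65.7% and 27.5%). *Myog*, a myogenic bHLH factor, had 63.3 to 119.2 CPM at E18.5, 35.3 to 91.5 at 2 wks, then 6.08 to 8.17 at 7 wks. Its ages overlapped at first and then separated, with a log2 change of -0.52 (SE 0.29, edgeR adjusted p = 0.122) followed by a fall of 3.01 (SE 0.31, edgeR adjusted p = 3e-05). The first change was called at -1.11 with the GC trend removed, -1.41 by total counts, -0.83 with the length trend removed and -0.79 without 2 wks library 1. The E-box binding partner *Tcf3* rose by 1.19 and then fell by 1.19. *Hdac9*, a class II histone deacetylase, fell by 1.94 and *Myf5*, the myoblast bHLH factor, fell by 1.81 at 2 wks. *Dach2*, a corepressor of *Myog*, rose by 1.17 at 2 wks (edgeR adjusted p = 0.0168) and by 2.54 at 7 wks (edgeR adjusted p = 0.00058). *Hdac4*, another class II deacetylase, rose by 0.55 at 7 wks (edgeR adjusted p = 0.0381). This call was lost under 5 of 11 other settings. It was also lost without any one of 2 wks libraries 1 to 3 or 7 wks libraries 3 and 4 (0.43 to 0.54). Without 2 wks library 4, *Dach2* was not called at 2 wks (0.95). By total counts none of the 16 genes was called higher at 2 wks. The GABP genes *Gabpa* (-0.88) and *Gabpb1* (-0.75) were lower at 2 wks, and the *Gabpa* call was lost with the GC trend removed. The part of any of these factors in the levels of the subunit genes was not tested.

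Nicotinic subunits of neurons and sensory cells were examined beside those of muscle. Of 11 such genes 6 passed the filter, and of these 3 fell and 3 did not pass the test at 2 wks (edgeR, where 34.2% of all genes tested fell), with 4 falling once the GC trend was removed. With at least 10 counts required in every library, 3 genes of the list were tested and 1 fell. *Chrna9*, known from cochlear hair cells, had 12.9, 18, 7.88 and 14.6 CPM at E18.5, 1.11 to 2.11 at 2 wks, then 0.590 to 0.903 at 7 wks. No ages overlapped, and it fell by 3.08 (SE 0.29, edgeR adjusted p = 1.27e-06) and by 1.04 (SE 0.29, edgeR adjusted p = 0.0165) on the log2 scale. The second call was lost without 2 wks library 1 (-0.88) or 7 wks library 2 (-0.92), and with the length trend removed (-0.81). *Chrna7*, a neuronal subunit, fell by 2.93 from 54 to 111 counts at E18.5 to 2 to 8 counts at 2 wks. *Chrna5* had 19 to 31 counts at E18.5 and 0 to 4 at 2 wks. *Chrna7* and *Chrna5* passed the filter through their E18.5 counts, so their tests could give only a fall. The share of all genes that fell is therefore not a like comparison for them.

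Among 7 ion channel and denervation-sensitive genes, 4 rose and 3 fell at 2 wks, and 2 rose and 2 fell at 7 wks, where 65.7% and 27.5% of all genes tested were called. *Scn4a*, the sodium channel of adult muscle, rose by 2.79 and 1.22 on the log2 scale. The chloride channel *Clcn1* rose by 3.27 and the calcium channel *Cacna1s* by 3.09 at 2 wks. *Ncam1* fell by 2.41 (SE 0.16, edgeR adjusted p = 6.05e-08) and by 0.78 (SE 0.15, edgeR adjusted p = 0.00225). *Clcn1* rose by 0.50 at 7 wks (edgeR adjusted p = 0.0317). This call was lost under 3 of 11 other settings, by total counts (0.15), by upper-quartile scaling (0.39) and with no filter (0.49). It was also lost without any one 2 wks library or 7 wks library 1, 2 or 4 (0.44 to 0.52).

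The splits within these lists also depended on the scaling. By total counts, 4 clustering genes were called higher and 12 lower at 2 wks, 1 and 10 of the assembly genes, and 0 and 10 of the transcription genes (edgeR). For 7 wks against 2 wks the numbers by total counts were 0 and 6, 1 and 6, and 1 and 8. Without 2 wks library 1 they were 0 and 1, 1 and 1, and 1 and 2 by TMM. The ion channel list kept 4 higher and 3 lower at 2 wks by total counts.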

How the data were processed

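TA muscle RNA (TruSeq Stranded mRNA kit) was sequenced. The authors deposited 1 table of raw HTSeq counts per gene for 12 libraries. The submitters' processing notes name bcl2fastq 2.17.1.14, cutadapt 1.10, STAR 2.5.3a, HTSeq 0.6.1p1 and the build mm10, whereas the study's methods name GRCm39. The strand setting of the counting is not given in the sources used here. Coordinates are RefSeq GRCm38.p6. GENCODE vM39 (GRCm39) gave names, lengths and GC content.

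Counts were normalized by TMM, filtered with filterByExpr and tested by age with edgeR 4.0.16 (quasi-likelihood, R 4.3.3) over all 12 libraries, with Benjamini-Hochberg adjustment over 19276 genes and a threshold of 0.05. The code was tested on simulated data. Alternatives were total counts, upper-quartile scaling, TMM without the 20 most abundant and mitochondrially encoded genes, DESeq2 1.42.0, other filters, a replicate block, removal of GC or length trends, the compared libraries alone and leaving out each library. For related genes these were added after seeing the data. The members and lists were chosen with earlier results of these data known. Named genes were the members, list genes (with the 2 largest called rises and falls of each list), the 3 genes most like each member, and genes that overlap or neighbour a member. Some list genes that this rule names are not reported here. *Chrnd* had no entry in the promoter table used.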

Additional observations from a re-analysis of the deposited data

How the results depend on the processing

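*Chrnd*, *Chrng* and *Chrne* kept their direction and their call from E18.5 to 2 wks, and from E18.5 to 7 wks, under every alternative and without any one library. For *Chrna1* at 2 wks against E18.5, the log2 change was called at -1.35 by total counts, -0.56 by upper-quartile scaling, -0.48 by DESeq2, -0.48 with no filter, -0.55 with at least 10 counts in every library and -0.49 with the length trend removed. Without any one library it was -0.53 to -0.25. *Chrnb1* at 2 wks against E18.5 was 0.030 by total counts and not called. For 7 wks against 2 wks, *Chrna1* was not called with no filter (-0.55) or with the length trend removed (-0.39), and it was -0.64 to -0.47 without any one library. *Chrnd* was not called with the length trend removed (-0.47) and was -0.75 to -0.56 without any one library. For 7 wks against E18.5, *Chrnb1* was -0.9998 by total counts and was called at 0.32 with the length trend removed, with 0.20 to 0.37 without any one library. The difference between intervals of *Chrna1* was 0.45 by total counts and 0.10 with the length trend removed, neither called. Its cause was not tested. The number of genes called at 7 wks against 2 wks was 3472 to 6146 without any one library. The split of the difference between intervals was 3235 higher and 4163 lower by TMM and 6104 and 2329 by total counts, and that for 7 wks against E18.5 was 6610 and 7145 by TMM and 2293 and 13296 by total counts. The log2 *Chrne* to *Chrng* ratio was -4.16, 4.94 and 5.71 at the 3 ages by coding length and -4.24, 4.87 and 5.64 with no division by length. Signs also turned for *Ric3* at 2 wks against E18.5 (-0.37 by total counts). At 7 wks against 2 wks they turned for *Rapsn* (-0.0049 by total counts) and *Dok7* (0.039 with the GC trend removed). With the GC trend removed and the replicate block together, *Dok7* was 0.038.

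Replicate numbers did not pair the libraries: same-numbered libraries correlated at -0.142 to 0.284 (12 pairs), and 3 of 12 libraries correlated best with their own number. With the replicate block, *Chrna1* at 2 wks against E18.5 was called at -0.41 (edgeR adjusted p = 0.0319), and the number of genes called went from 12668 to 12470. No other call of the 5 genes changed.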

Other observations

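The 2 wks libraries differed among themselves in several genes at once, a pattern chosen after its values were seen. The difference was not confined to the genes named here. In libraries 1 to 4 the summed muscle fibre markers were 115700, 116700, 133900 and 140200 CPM. The first principal component of all genes tested was 34.0, 39.0, 53.3 and 71.3 in the same libraries. The share of all genes that followed this order was not counted. The library with the highest *Chrne* level (71.5 CPM) also had the highest levels of *Myog* (91.5 CPM) and *Musk* (6.42 CPM) and the lowest level of *Lynx1* (90.3 CPM). The library with the lowest *Chrne* level (32.2 CPM) had the lowest *Myog* (35.3 CPM) and *Musk* (2.57 CPM) and the highest *Lynx1* (168.2 CPM). *Chrnb1* varied little across the same libraries, from 114.8 to 123.1 CPM.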
